A study of Mus musculus with 30 samples.

Results

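The genes described here are 9 components of muramyl peptide sensing, found by symbol among the 55471 genes of each deposited count table: the receptors Nod1 and Nod2, the kinase Ripk2, the ubiquitin ligase Xiap, the adaptor Card9, the sugar kinase Nagk, and the endolysosomal carriers Slc15a3, Slc15a4 and Slc46a3. Each symbol named 1 row in both tables, and all 9 passed the filter on low counts in both. The treatment was MTP10-HDL, in which particles of high-density lipoprotein are loaded with a muramyl tripeptide, and control mice received phosphate-buffered saline (PBS). RNA came from sorted bone marrow cells of C57BL/6 mice, each sample a pool of 4 mice, so p-values measure the spread between pools. Hematopoietic stem cells (HSCs) gave 6 MTP10-HDL and 7 PBS libraries, and multipotent progenitors (MPPs) gave 3 MTP10-HDL and 2 PBS libraries. The schedule was stated for MPP donors, 3 injections in 5 days with the marrow taken on the following day, and is not given for HSC donors in the sources used here. The age and sex of the mice are not given there either. The 12 ATAC-seq samples of the series were not analysed here.

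Muramyl peptides are fragments of bacterial peptidoglycan that reach the cytosol through carriers in the membrane of endosomes and lysosomes. In the cytosol Nagk phosphorylates muramyl dipeptide, the form that Nod2 senses, while Nod1 senses peptides that contain diaminopimelic acid. Both receptors bind Ripk2, which is ubiquitinated by Xiap and other ligases and recruits the TAK1 and IKK kinases that activate NF-kB, and Card9 links the receptors to MAP kinases. In myeloid cells this route induces cytokines, and muramyl peptides are among the ligands used to induce trained immunity.

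Depth was 5467455 to 7641976 counts in MTP10-HDL and 4064155 to 7879858 in PBS HSC libraries, and 17555267 to 32769369 counts in MTP10-HDL and 11252479 to 14691375 in PBS MPP libraries. Levels are in CPM, each count taken relative to its library's total after TMM scaling, which sets libraries to a common bulk of genes. The kits differed between the populations and no transcript lengths were used, so levels are compared neither between HSCs and MPPs nor between genes. The summed stem cell markers stood at 1596 to 2484 CPM in MTP10-HDL HSCs and 1644 to 3176 CPM in PBS HSCs, and multipotent progenitor markers at 2833 to 2904 CPM in MTP10-HDL MPPs and 2316 to 2731 CPM in PBS MPPs. One HSC library stood apart. MTP10-HDL 1 held 9006 CPM of 14 monocyte and macrophage markers, of which 5564 CPM were Lyz2, against 865.4 to 2618 CPM in the other MTP10-HDL libraries and 531.3 to 3174 CPM in PBS libraries. It was the highest of the 13 HSC libraries for 10 of these 14 markers and for 9 of 12 mature neutrophil markers, and it was among the 3 highest for all 9 pathway genes. The HSC fold changes of the 9 genes are therefore given with and without it, and those of related genes without it where the sign turned or the value moved by over 1.5 times. Those of cell type marker lists are given only with it.

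No gene of the pathway passed the false discovery rate threshold of 0.05 in either population, and no gene of the whole tables did (0% of 16631 HSC genes and 0% of 15449 MPP genes, edgeR quasi-likelihood test). At an unadjusted p under 0.05 the count was 1 of 9 in HSCs, Nod1, with a positive fold change, where 8.83% of all genes had such a p (4.36% higher and 4.47% lower). In MPPs it was also 1 of 9, Card9, again positive, where 6.23% of all genes did (2.17% higher and 4.06% lower). By DESeq2, 0 of the 9 genes passed in either population, where 108 of 47787 HSC genes and 163 of 26208 MPP genes did. By limma voom 0 of the 9 passed, and 0 of all genes tested in either population. The treated and control libraries did not overlap for 0 of the 9 genes in HSCs (0.343% of all genes) and for 3 of 9 in MPPs (24.3% of all genes).

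Promoter sequence is given for the 3 genes whose MPP libraries separated by treatment. RefSeq windows on GRCm38.p6 were matched for 7 of the 9 genes. Shown are the 250 bases upstream of the transcript start in the RefSeq table, which for each of the 3 lies inside the gene span given with its values, so that the windows run into that span. They are written 5′ to 3′ on the gene's strand, with capitals on each GGGCGG or its reverse complement CCGCCC, the core of the GC box bound by Sp1-family factors. The windows lie at chr2:26360910-26361159 (minus strand, Card9), chr5:147894816-147895065 (minus strand, Slc46a3) and chr8:88647097-88647346 (plus strand, Nod2).
Card9: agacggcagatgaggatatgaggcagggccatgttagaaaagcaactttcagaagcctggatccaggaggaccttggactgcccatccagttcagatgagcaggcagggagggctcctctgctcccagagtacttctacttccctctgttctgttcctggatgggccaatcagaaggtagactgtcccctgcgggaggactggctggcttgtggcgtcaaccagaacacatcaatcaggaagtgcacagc
Slc46a3: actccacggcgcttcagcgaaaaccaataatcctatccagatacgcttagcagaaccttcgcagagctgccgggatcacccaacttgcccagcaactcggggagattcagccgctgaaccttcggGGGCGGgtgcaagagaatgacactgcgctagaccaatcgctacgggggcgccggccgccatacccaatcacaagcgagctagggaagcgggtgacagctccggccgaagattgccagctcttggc
Nod2: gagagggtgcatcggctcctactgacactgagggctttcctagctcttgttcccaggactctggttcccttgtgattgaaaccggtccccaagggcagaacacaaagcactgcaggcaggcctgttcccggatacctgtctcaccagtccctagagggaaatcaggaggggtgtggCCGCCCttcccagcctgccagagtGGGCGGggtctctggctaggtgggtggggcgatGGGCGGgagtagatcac
The Card9 window held no GGGCGG, 3 CpG dinucleotides and 55.2% G and C. In the Slc46a3 window there was 1 GGGCGG, from base -125 to -120 relative to the start, with 20 CpG dinucleotides and 60.0% G and C. The Nod2 window held 3, at -74 to -69, -50 to -45 and -17 to -12, with 7 CpG dinucleotides and 61.2% G and C. Over the 32841 windows of this length in the RefSeq table, searched on both strands, 32.7% held GGGCGG, and the medians were 6 CpG dinucleotides and 52.4% G and C. The motif was in at least 1 window of 6 of the 7 matched genes, Card9 being the exception. Nod1 and Xiap had more than 1 window each, while the 32.7% counts single windows, so the 2 are not on the same unit. An interferon-response-like motif, a pair of GAAA with any 2 bases between them (2.98% of all windows), GAGGAAGT (a PU.1-like motif, 2.44%), the kappaB consensus (7.25%) and TGANTCA (an AP-1-like motif, 6.75%) were found in none of the 7. A motif match is a description of the letters and shows no binding.

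**Figure D1:**
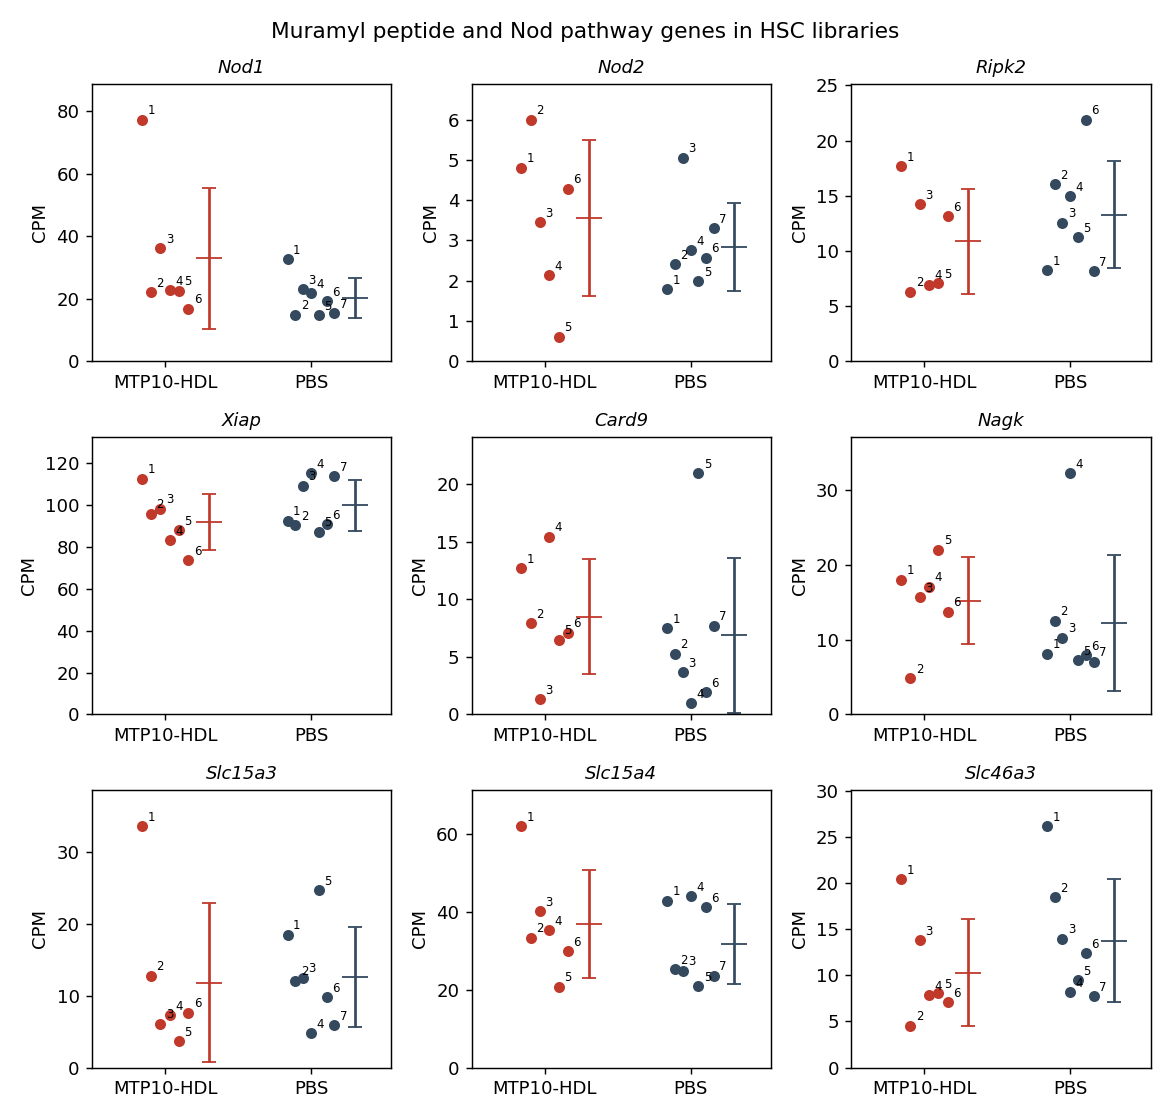
Level of each gene in CPM (vertical axis) in every HSC library, MTP10-HDL on the left and PBS on the right, with the library's number beside its point and the mean ± SD of 6 MTP10-HDL or 7 PBS libraries as a bar. The groups overlap for all 9 genes, and MTP10-HDL 1 is the highest library for Nod1, Slc15a3 and Slc15a4.

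Nod1 (ENSMUSG00000038058, mm10 chr6:54923942-54972674), the receptor for diaminopimelic acid peptides, ranged in HSCs from 16.8 CPM in the lowest to 77.2 CPM in the highest MTP10-HDL library, with a median of 22.7 CPM, against 14.8 to 32.6 CPM with a median of 19.3 CPM in PBS libraries. Its mean was 32.9 ± 22.6 CPM in MTP10-HDL HSCs and 20.3 ± 6.40 CPM in PBS HSCs (SD, n = 6 and 7). MTP10-HDL 1 gave the highest value and MTP10-HDL 3, at 36.3 CPM, the next, and the other 4 treated libraries lay within the PBS range. The log2 fold change was 0.70 (SE 0.32, 95% interval 0.02 to 1.37; unadjusted p = 0.0446, adjusted p = 0.562 by edgeR). Without MTP10-HDL 1 it was 0.25 (SE 0.24, adjusted p = 0.733), and over all alternatives the adjusted p lay between 0.373 and 0.786. The treated libraries also carried summed neutrophil markers of 674 to 6098 CPM, against 114.4 to 4116 CPM in PBS libraries. The 6098 CPM were in MTP10-HDL 1, and the next treated library, MTP10-HDL 6, had 3529 CPM. Of these markers 12 of 12 had a positive fold change (median log2 fold change 0.90), 0 of them at an unadjusted p under 0.05, where 4.36% of all genes were higher. MTP10-HDL 1 was the highest library for 9 of the 12, and the list was not summarized without it. Monocyte and macrophage markers had 12 of 14 fold changes positive (median 0.84), 1 of them at such a p, also with this library included. Erythroblast markers summed to 154 to 348.9 CPM in MTP10-HDL HSCs and 283.2 to 701.8 CPM in PBS HSCs, with 10 of 10 fold changes negative, 8 of them at an unadjusted p under 0.05 (median -1.26). B cell markers summed to 44.6 to 133 CPM in MTP10-HDL HSCs and 47.56 to 448.8 CPM in PBS HSCs, with 9 of 9 negative, 7 of them at such a p (median -1.62), where 4.47% of all genes were lower. The part of these markers in the differences of the 9 genes in HSCs was not tested.

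In MPPs Nod1 stood at 17.2, 11.8 and 24.0 CPM in MTP10-HDL libraries 1, 2 and 3, against 17.96 and 23.6 CPM in PBS libraries 2 and 3. The groups overlapped, with the lowest and the highest value both in treated libraries (log2 fold change -0.23, SE 0.34, 95% interval -1.02 to 0.55, adjusted p = 0.949 by edgeR). The MPP response minus the HSC response was -0.90 for Nod1 (SE 0.58, 95% interval -2.09 to 0.29, adjusted p = 1.00 by edgeR), so a difference between the populations was not shown.

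Nod2 (ENSMUSG00000055994, chr8:88647315-88688474), the muramyl dipeptide receptor, was sparsely counted in HSCs, with 5 to 37 reads per library. Its level ran from 0.611 to 5.99 CPM with a median of 3.87 CPM in MTP10-HDL HSCs, against 1.79 to 5.05 CPM with a median of 2.57 CPM in PBS HSCs. The lowest library, MTP10-HDL 5, rested on 5 reads, for which the exact 95% Poisson interval is 0.198 to 1.43 CPM and covers counting error only. Treated libraries lay on both sides of the whole PBS range, and the log2 fold change was 0.31 (SE 0.48, 95% interval -0.70 to 1.33, adjusted p = 0.850 by edgeR), and 0.21 without MTP10-HDL 1 (SE 0.53, adjusted p = 0.902). A difference was not shown, and the part of the low read count in this was not tested.

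In MPPs Nod2 stood at 3.10, 4.79 and 4.07 CPM in MTP10-HDL libraries 1, 2 and 3, against 5.38 and 6.37 CPM in PBS libraries 2 and 3. All 3 treated libraries were below both controls, as were those of 12.3% of all genes tested. The fitted log2 fold change was -0.56 (SE 0.41, 95% interval -1.51 to 0.40, adjusted p = 0.882 by edgeR).

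Ripk2 (ENSMUSG00000041135, chr4:16122732-16163678), the kinase that both receptors engage, ranged from 6.32 to 17.7 CPM with a median of 10.1 CPM in MTP10-HDL HSCs, against 8.15 to 21.9 CPM with a median of 12.5 CPM in PBS HSCs. The treated libraries fell into 3 near 7 CPM, MTP10-HDL 2, 4 and 5, and 3 above 13 CPM, and the first 3 were below every control. The fitted log2 fold change was -0.29 (SE 0.31, 95% interval -0.95 to 0.37, adjusted p = 0.787 by edgeR) and -0.47 without MTP10-HDL 1. MPP levels were 11.6, 15.7 and 14.4 CPM in MTP10-HDL libraries 1, 2 and 3, against 15.4 and 10.7 CPM in PBS libraries 2 and 3. One control lay below every treated library and the other among them, with a log2 fold change of 0.09 (SE 0.30, 95% interval -0.60 to 0.78).

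Xiap (ENSMUSG00000025860, chrX:42059613-42109664), the ligase that ubiquitinates Ripk2 and also an inhibitor of caspases, varied least in HSCs among the 9 genes relative to its mean, with 91.9 ± 13.5 CPM in MTP10-HDL and 99.96 ± 12.2 CPM in PBS libraries (SD, n = 6 and 7). The range was 73.5 to 112.6 CPM in treated and 87.4 to 115.3 CPM in control libraries. MTP10-HDL 4 and 6 were below every control, and the other 4 treated libraries were within the control range. Its log2 fold change was -0.12, and the 95% interval of -0.39 to 0.15 was the narrowest of the 9 in HSCs (SE 0.13, adjusted p = 0.781 by edgeR). Without MTP10-HDL 1 it was -0.18 (SE 0.13, adjusted p = 0.642). In MPPs the values were 123.8, 58.96 and 133.5 CPM in MTP10-HDL libraries 1, 2 and 3, against 118.9 and 105.6 CPM in PBS libraries 2 and 3. MTP10-HDL 2 alone was below both controls. The fold change on the log2 scale was -0.09 (SE 0.34, 95% interval -0.89 to 0.71) with all libraries and 0.20 when MTP10-HDL 2 was left out.

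Card9 (ENSMUSG00000026928, chr2:26352187-26360945), the CARD adaptor that also serves C-type lectin receptors and forms a complex with Bcl10 and Malt1, gave the smallest p of the 9 genes in MPPs. It stood at 19.9, 29.4 and 25.4 CPM in MTP10-HDL libraries 1, 2 and 3 (676, 828 and 461 reads), against 12.0 and 10.1 CPM in PBS libraries 2 and 3 (176 and 114 reads). Every treated library was above both controls, as were those of 12% of all genes tested. The means were 24.9 ± 4.75 CPM in MTP10-HDL MPPs and 11.03 ± 1.34 CPM in PBS MPPs (SD, n = 3 and 2), a 2.25-fold difference in the fit. On the log2 scale this was 1.17 (SE 0.27, 95% interval 0.54 to 1.81), with an unadjusted p = 0.00299, rank 112 of 15449, and an adjusted p = 0.413 by edgeR.

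The Card9 call in MPPs depended on the filter on low counts. With the filter, over 15449 genes, the adjusted p was 0.413 by edgeR and 0.594 by limma voom. Without it, over 26208 genes, it was 0.0343 by edgeR and the gene passed. In that fit 345 of the 26208 genes passed, 49 higher and 296 lower, against 0 of 15449 with the filter. By DESeq2, run without that filter and with its own, the adjusted p of Card9 was 0.0518. The log2 fold change stayed between 1.03 and 1.31 in every alternative. The adjusted p ranged from 0.0343 to 0.962 over these alternatives. Monocyte and macrophage markers summed to 628.9 to 954.1 CPM in MTP10-HDL MPPs and 793.3 to 911 CPM in PBS MPPs. Mature neutrophil markers summed to 257.9, 298.6 and 1780 CPM in MTP10-HDL libraries 1, 2 and 3, against 817.9 and 646.2 CPM in PBS libraries 2 and 3. The part of these markers in the Card9 difference was not tested. Other measures separated the same libraries. Depth was 17555267 to 32769369 counts in MTP10-HDL MPPs and 11252479 to 14691375 counts in PBS MPPs. Multipotent progenitor markers summed to 2833 to 2904 CPM in MTP10-HDL MPPs and 2316 to 2731 CPM in PBS MPPs. Stem cell markers summed to 1311 to 1510 CPM in MTP10-HDL MPPs and 1921 to 2078 CPM in PBS MPPs, with 10 of 10 fold changes negative, and dendritic cell markers to 62.8 to 71.5 CPM in MTP10-HDL MPPs and 96.6 to 113.8 CPM in PBS MPPs. Erythroblast markers summed to 147.9 to 181.7 CPM in MTP10-HDL MPPs and 183.5 to 213.6 CPM in PBS MPPs, with 8 of 10 fold changes negative, 6 of them at an unadjusted p under 0.05 (median -2.08), where 4.06% of all genes were lower. Ribosomal RNA took 0.508% to 0.916% of counts in treated MPPs and 1.26% to 1.47% in control MPPs, and immunoglobulin genes 2.76% to 4.26% in treated and 6.20% to 12.5% in control MPPs. These cannot be told apart from the treatment with these libraries, and in bulk RNA a changed share of cells and a changed amount of RNA per cell cannot be told apart either. The antisense long noncoding RNA Gm13562 overlaps Card9 by 2936 bases, and had 0.0355 to 0.770 CPM in MTP10-HDL MPPs and 0 to 1.02 CPM in PBS MPPs. In HSCs Gm13562 had 0.133 to 1.10 CPM in MTP10-HDL and 0.349 to 5.40 CPM in PBS libraries. The strand setting of the counting is not given in the sources used here.

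**Figure D2:**
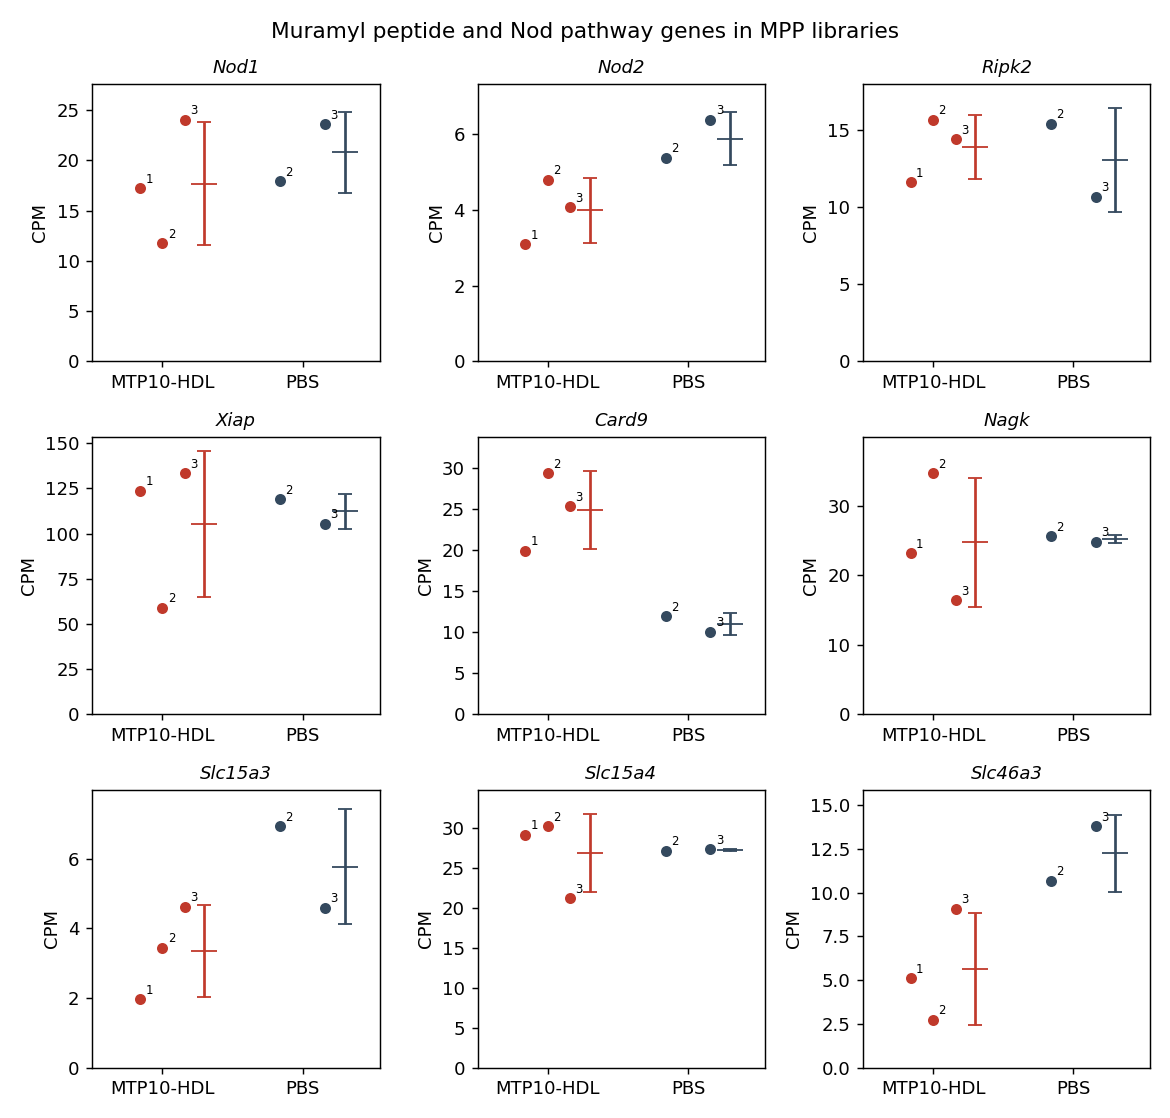
Level of each gene in CPM (vertical axis) in every MPP library, MTP10-HDL on the left and PBS on the right, with the library's number beside its point and the mean ± SD of 3 MTP10-HDL or 2 PBS libraries as a bar. Card9 lies at 19.9 to 29.4 CPM in MTP10-HDL and 10.1 to 12.0 CPM in PBS libraries, and Nod2 and Slc46a3 separate the other way. The groups did not overlap for 24.3% of all genes tested.

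In HSCs Card9 spread far more within each group than between them. It ranged from 1.33 to 15.4 CPM with a median of 7.51 CPM in MTP10-HDL HSCs, against 1.00 to 21.0 CPM with a median of 5.27 CPM in PBS HSCs. The highest library was PBS 5, with 4116 CPM of neutrophil markers, and the lowest PBS 4, with 114.4 CPM of them. PBS 7, with 158.7 CPM of these markers, was the second highest control for Card9 at 7.71 CPM, and MTP10-HDL 3, with 2388 CPM, the lowest treated library at 1.33 CPM. Both groups spanned more than 10-fold, and the log2 fold change was 0.32 (SE 0.59, 95% interval -0.94 to 1.57, adjusted p = 0.880 by edgeR). It was 0.17 without MTP10-HDL 1 (SE 0.63, adjusted p = 0.937) and 0.92 without PBS 5. The MPP response minus the HSC response was 0.86 for Card9 (SE 0.97, 95% interval -1.15 to 2.87, adjusted p = 1.00 by edgeR), so the data do not show that the populations responded differently.

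Nagk (ENSMUSG00000034744, chr6:83794983-83802556), the N-acetylglucosamine kinase that phosphorylates muramyl dipeptide, ranged from 4.86 to 22.0 CPM with a median of 16.4 CPM in MTP10-HDL HSCs, against 7.05 to 32.2 CPM with a median of 8.12 CPM in PBS HSCs. Treated libraries other than MTP10-HDL 2 were above every control except PBS 4, so 1 library in each group ran against its fellows. In the fit the log2 fold change was 0.31 (SE 0.39, 95% interval -0.51 to 1.13, adjusted p = 0.818 by edgeR), 0.26 without MTP10-HDL 1 (SE 0.42, adjusted p = 0.841) and 0.78 without PBS 4 (adjusted p between 0.367 and 0.934 over all alternatives). MTP10-HDL 2 and PBS 4 both belong to the 4 HSC libraries with the fewest detected genes. So do MTP10-HDL 3, at 15.7 CPM, and PBS 1, at 8.12 CPM, which lay with their fellows. The part of gene detection in the Nagk values was not tested. MPP levels were 23.2, 34.7 and 16.4 CPM in MTP10-HDL libraries 1, 2 and 3, against 25.7 and 24.9 CPM in PBS libraries 2 and 3. The treated values lay on either side of the controls, with a log2 fold change of -0.03 (SE 0.33, 95% interval -0.78 to 0.73).

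Slc46a3 (ENSMUSG00000029650, chr5:147875897-147894861), a lysosomal carrier linked to muramyl peptide transport, was lower in all 3 treated MPP libraries than in both controls. The same held for 12.3% of all genes tested. Slc46a3 stood at 5.10, 2.73 and 9.08 CPM in MTP10-HDL libraries 1, 2 and 3, against 10.7 and 13.8 CPM in PBS libraries 2 and 3. The log2 fold change was -1.12 (SE 0.50, 95% interval -2.28 to 0.04, unadjusted p = 0.0559, adjusted p = 0.802 by edgeR), and it moved between -1.64 and -0.79 when single libraries were left out. In HSCs the range was 4.54 to 20.4 CPM with a median of 7.94 CPM in MTP10-HDL libraries, against 7.71 to 26.1 CPM with a median of 12.4 CPM in PBS libraries. MTP10-HDL 2 and 6 were below every control, and the other 4 were within the control range. The log2 fold change in HSCs was -0.42 (SE 0.37, 95% interval -1.20 to 0.36, adjusted p = 0.741 by edgeR) and -0.73 without MTP10-HDL 1 (SE 0.36, adjusted p = 0.511). The fold change of Slc46a3 was negative in both populations and under every alternative run, without passing the threshold in any of them.

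Slc15a3 (ENSMUSG00000024737, chr19:10842544-10857915), an endolysosomal carrier of peptides and histidine, ranged from 3.67 to 33.6 CPM with a median of 7.48 CPM in MTP10-HDL HSCs, against 4.77 to 24.7 CPM with a median of 12.1 CPM in PBS HSCs. The highest treated library was MTP10-HDL 1 and the highest control PBS 5, the libraries with the most monocyte and macrophage markers in their groups, 9006 CPM and 3174 CPM. Of the sum in PBS 5, 2375 CPM were Lyz2. Without Lyz2 the markers summed to 3443 CPM in MTP10-HDL 1, but to 799.6 CPM in PBS 5. That was below PBS 1, 2 and 3, at 1392, 983.2 and 918.9 CPM. The part of these markers in the Slc15a3 values was not tested. Over all libraries the log2 fold change was -0.09 (SE 0.48, 95% interval -1.10 to 0.92, adjusted p = 0.961 by edgeR). It was -0.74 without MTP10-HDL 1 and 0.16 without PBS 5. MPP levels were 1.98, 3.44 and 4.62 CPM in MTP10-HDL libraries 1, 2 and 3, against 6.94 and 4.60 CPM in PBS libraries 2 and 3. The highest treated and the lowest control library were nearly equal, and the log2 fold change was -0.79 (SE 0.50, 95% interval -1.96 to 0.38, adjusted p = 0.873 by edgeR). Tmem132a overlaps Slc15a3 by 87 bases, and had 0.935 to 2.39 CPM in MTP10-HDL and 0.796 to 2.45 CPM in PBS MPPs. In HSCs it had 0 to 6.87 CPM in MTP10-HDL and 1.13 to 9.74 CPM in PBS libraries.

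Slc15a4 (ENSMUSG00000029416, chr5:127594545-127633292), its relative, which also takes part in endosomal Toll-like receptor signalling, ranged from 20.8 to 62.0 CPM with a median of 34.4 CPM in MTP10-HDL HSCs, against 21.0 to 43.9 CPM with a median of 25.3 CPM in PBS HSCs. Controls fell into 3 libraries above 41 CPM, PBS 1, 4 and 6, and 4 below 26 CPM, and the treated libraries other than MTP10-HDL 1 lay between 20.8 and 40.1 CPM. Treatment went with a log2 fold change of 0.21 (SE 0.25, 95% interval -0.32 to 0.73, adjusted p = 0.808 by edgeR), and 0.0026 without MTP10-HDL 1. In MPPs the values were 29.2, 30.2 and 21.2 CPM in MTP10-HDL libraries 1, 2 and 3, against 27.2 and 27.3 CPM in PBS libraries 2 and 3. The log2 fold change there was -0.02 (SE 0.24, 95% interval -0.57 to 0.54). Slc15a4 shares 1223 bases with Glt1d1, which had 0 to 5.86 CPM in MTP10-HDL and 0 to 7.88 CPM in PBS HSCs.

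**Figure D3:**
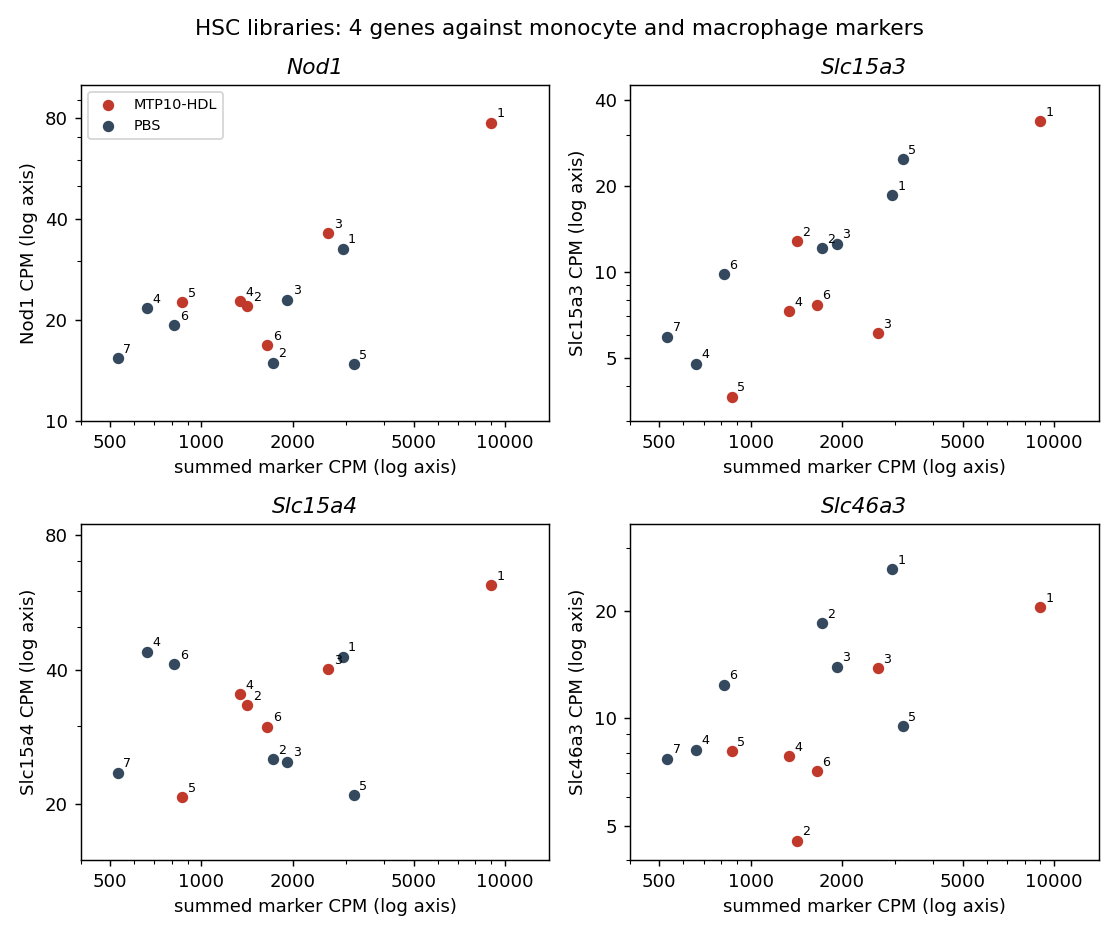
Level of Nod1, Slc15a3, Slc15a4 and Slc46a3 in CPM (vertical, log axis) against the summed CPM of 14 monocyte and macrophage markers (horizontal, log axis), 1 point for each of the 13 HSC libraries with its number beside it, MTP10-HDL in red and PBS in dark blue. MTP10-HDL 1 lies at 9006 CPM of markers and 77.2 CPM of Nod1, away from the other 12 libraries.

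Together, 5 of the 9 genes had a positive and 4 a negative fold change in HSCs, with a median log2 fold change of 0.21, against -0.02 over all genes tested. Without MTP10-HDL 1 the split was again 5 and 4, and the median was 0.0026. In MPPs 2 were positive and 7 negative, with a median of -0.09, against 0.02 over all genes. The sign was the same in both populations for 4 of the 9 genes. For none did the difference between the MPP and the HSC response pass the threshold, where 1 of 24470 genes tested did (0.00409%), and 0 of the 9 had an unadjusted p under 0.05 for it, against 3.86% of all genes.

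**Figure D4:**
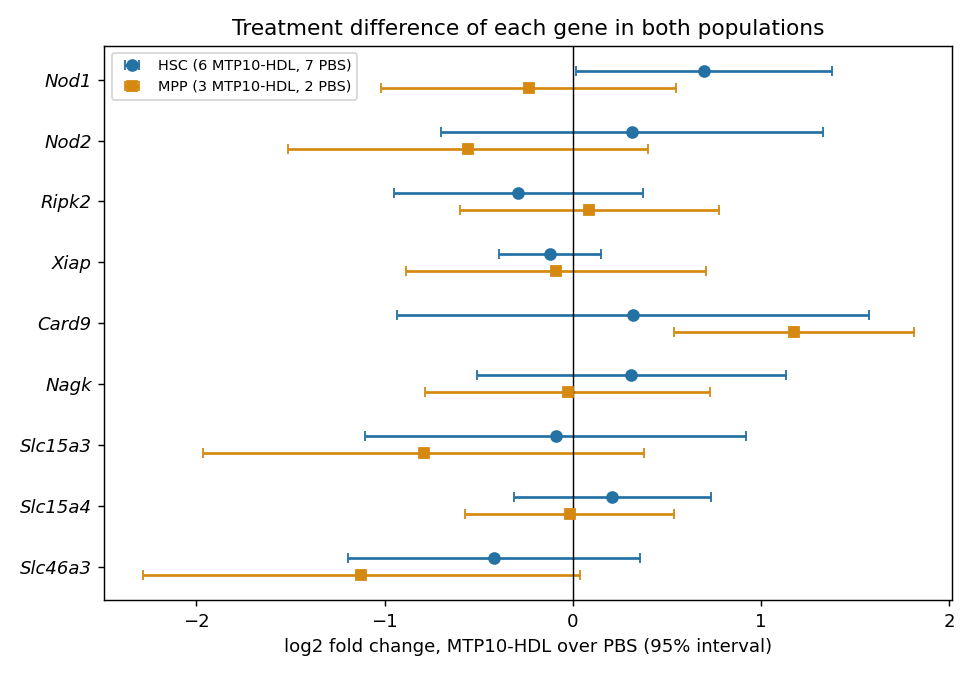
Log2 fold change of each gene, MTP10-HDL over PBS (horizontal axis), with its 95% interval, in HSCs (blue circles, 6 and 7 libraries) and MPPs (orange squares, 3 and 2 libraries). The interval excludes 0 for Nod1 in HSCs, 0.02 to 1.37, and for Card9 in MPPs, 0.54 to 1.81, before adjustment over all genes.

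HSC libraries also differed in detected genes and in ribosomal RNA share, and both treatments occur in each of 3 technical groups: the 4 libraries with the fewest detected genes, the 4 others with the most ribosomal RNA, and the remaining 5. Within them, in that order, the difference in mean log2 CPM was 0.09, 1.16 and 0.25 for Nod1, and 0.20, 1.60 and -0.04 for Card9. For Slc46a3 it was -0.85, -0.33 and -0.34, for Ripk2 -0.22, -0.35 and -0.38, and for Xiap -0.09, -0.04 and -0.26. These 3 genes kept a negative sign in each group, and Nod1 a positive one. The sign changed between groups for the rest, with 0.94, -0.11 and -0.48 for Nod2, -0.86, 0.61 and 1.20 for Nagk, -0.09, 0.35 and -1.05 for Slc15a3, and -0.24, 0.89 and -0.13 for Slc15a4. MTP10-HDL 1 is in the group with the most ribosomal RNA.

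Further along the pathway, 5 lists of genes that act with the 9 gave no call in either population by edgeR, so the examples are the 2 genes of smallest p in each list, given as values that did not pass. Of 16 Nod2 partners and regulators tested in HSCs, 8 had a positive and 8 a negative fold change (median -0.01), and 2 had an unadjusted p under 0.05, both higher, where 4.36% of all genes did. These were Rnf34, a ubiquitin ligase, with a log2 fold change of 0.40 (SE 0.17, adjusted p = 0.517 by edgeR), and Hsp90ab1, the chaperone, with 0.32 (SE 0.14, adjusted p = 0.542 by edgeR). Among 15 tested in MPPs, 8 were positive and 7 negative (median 0.0013). There Tnfaip3, which encodes the deubiquitinase A20 and is itself an NF-kB target, ranged from 11.7 to 17.5 CPM in MTP10-HDL and from 25.9 to 45.5 CPM in PBS libraries. Every treated library was below both controls, as were those of 12.3% of all genes tested. The log2 fold change of Tnfaip3 was -1.21 (SE 0.31, unadjusted p = 0.00498, adjusted p = 0.490 by edgeR), and Hsp90ab1 gave 0.49 (SE 0.27).

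The ubiquitin, TAK1 and IKK relay had 16 genes tested in each population, with 10 positive and 6 negative fold changes in HSCs (median 0.10) and 7 positive and 9 negative in MPPs (median -0.03). In HSCs the kinase subunit Chuk (IKK-alpha) had the smallest p, at 25.3 to 40.2 CPM in MTP10-HDL and 33.8 to 52.5 CPM in PBS libraries (log2 fold change -0.42, SE 0.16, adjusted p = 0.494 by edgeR). Traf6, a ubiquitin ligase upstream of TAK1, followed with 0.41 (SE 0.17, adjusted p = 0.516 by edgeR). An unadjusted p under 0.05 was found for 4 of the 16 in HSCs, 3 positive and 1 negative, where 4.36% of all genes were higher and 4.47% lower, and for 0 of the 16 in MPPs. The other two, named after their values were seen, were Rnf31, a subunit of the linear ubiquitin ligase, with 0.41 (SE 0.18), and Ikbkb, which encodes IKK-beta, with 0.29 (SE 0.13). Without MTP10-HDL 1 such a p was found for 1 positive and 1 negative gene of the 16, Traf6 and Chuk, where 4.78% of all genes were higher and 5.22% lower, and the list had 7 positive and 9 negative fold changes (median -0.01). The MPP examples were Tab1, a TAK1-binding protein, with 0.61 (SE 0.32), and Traf5 with -0.39 (SE 0.32). In the Card9, Bcl10 and MAP kinase list 6 genes were positive and 3 negative in HSCs (median 0.12), and 3 positive and 6 negative in MPPs (median -0.04). Bcl10, which binds Card9, had a log2 fold change of 0.26 (SE 0.17) in HSCs, and Map2k6, a kinase of p38, 0.32 (SE 0.23). In MPPs Map2k7, a kinase of JNK, had -0.31 (SE 0.19) and Mapk14, which encodes p38-alpha, -0.28 (SE 0.19).

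Genes of peptidoglycan recognition, cleavage and related carriers were tested in 10 cases in HSCs, 6 positive and 4 negative (median 0.25), and in 9 cases in MPPs, 4 positive and 5 negative (median -0.11). The lysosomal nucleoside carrier Slc29a3 had a log2 fold change of 0.48 (SE 0.24, adjusted p = 0.574 by edgeR) in HSCs, and the peptidoglycan-binding protein gene Pglyrp1, which neutrophils carry in granules, 0.72 (SE 0.47). Without MTP10-HDL 1 Slc29a3 had 0.24 (SE 0.21), and the median of the list was 0.04. In MPPs the amidase gene Pglyrp2 had -0.40 (SE 0.20), and the inflammasome receptor Nlrp3 -1.83 (SE 1.29) at 0 to 1.798 CPM in MTP10-HDL and 3.01 to 3.40 CPM in PBS libraries. Of the 13 genes known to be induced by Nod2 ligands in myeloid cells, 8 were tested in each population, with 3 positive and 5 negative in HSCs (median -0.10) and 2 positive and 6 negative in MPPs (median -0.74). Il1b, the interleukin-1 beta gene, stood at 35.2 CPM in MTP10-HDL 1 and at 1.78 to 4.05 CPM in the other 5 MTP10-HDL HSC libraries, against 0 to 6.62 CPM in PBS libraries. Its log2 fold change was 1.16 (SE 0.81) with all HSC libraries and -0.35 (SE 0.72) without MTP10-HDL 1. Nfkbia, the NF-kB inhibitor gene, had -0.41 (SE 0.30) in HSCs. Without MTP10-HDL 1 the list had 0 positive and 8 negative fold changes in HSCs (median -0.31). Of these 8, 0 had an unadjusted p under 0.05, where 5.22% of all genes were lower at such a p. Over all 17213 genes of that fit 9372 fold changes were negative (median -0.04). In MPPs the examples were Tnfaip3, above, and the anti-inflammatory cytokine gene Il10, with -2.26 (SE 1.18) at 0.0550 to 3.19 CPM in MTP10-HDL and 2.18 to 11.2 CPM in PBS libraries.

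**Figure D5:**
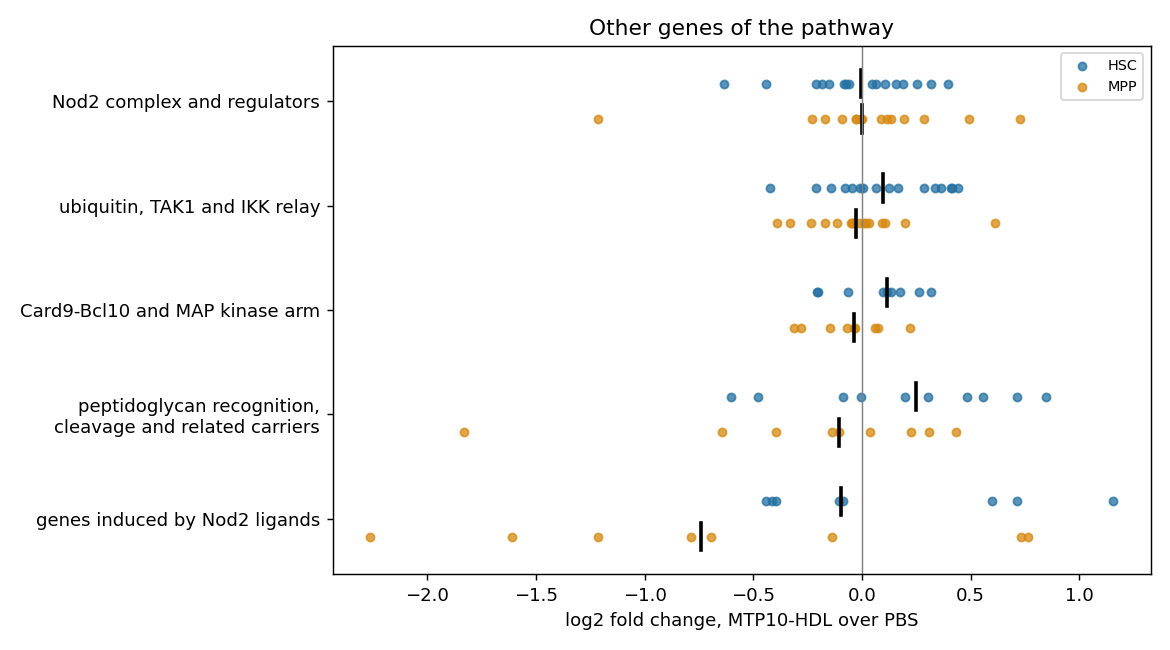
Log2 fold change, MTP10-HDL over PBS (horizontal axis), of each tested gene in 5 lists that act with the 9 genes (vertical axis), HSCs in blue above MPPs in orange, with a black bar at each list's median. The medians lie between -0.10 and 0.25 in HSCs, and the lowest is -0.74 in MPPs, for genes induced by Nod2 ligands.

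Across the 13 HSC libraries, the level of 7 of the 9 genes was compared with 9696 genes of at least 10 CPM by Spearman's rho of log2 CPM, as a description, since all values of a library share its depth and cell makeup. Nod1 ran most like Dnajc5 (0.962), Tfec (0.912) and Snrnp27 (0.901). Closest to Slc15a3 were Trp53inp2 (0.945), Snx9 (0.912) and Tpm4 (0.879), and to Slc46a3 Hmox1 (0.967), Ciita (0.956) and Ctsh (0.940). Among the genes most like Slc15a4 were Furin (0.901) and Tmem70 (0.841), and Nagk ran most like Dus3l (0.923), Pip5k1c (0.857) and Srek1ip1 (0.846). For Xiap the 3 were Dipk2a (0.852), Ago3 (0.841) and Ptk2 (0.824), and for Ripk2 they were Etv5 (0.830), Dip2c (0.819) and Cd274 (0.775). Nod2 and Card9 averaged under 10 CPM in HSCs and were not compared.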

How the data were processed

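The authors deposited raw read counts per Ensembl gene, 1 table for the 13 HSC libraries and 1 for the 5 MPP libraries. Per the labels' protocols, HSC RNA was amplified and read as single 50-base reads, and MPP RNA was poly-A selected with insect carrier RNA and a directional kit. The submitters' processing notes name mm10 for both populations, STAR 2.5.2b and CASAVA 1.8.2 for HSC samples, and DESeq2 1.24, R 3.6.1 and STAR 2.7.2a for MPP samples. Not given in the sources used here are the counting tool, the annotation and the use of strand. Column names of the HSC table begin with ESC, which no label explains. The HSC table numbers its PBS columns 1 to 7, while the labels number the last sample 8, so that column was used by group only.

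Each population was fitted apart with edgeR 4.0.16 in R 4.3.3, using TMM scaling, filterByExpr, the quasi-likelihood F test and Benjamini-Hochberg adjustment over all genes tested (threshold 0.05). A joint fit of 4 group means gave the difference of the responses. It took the spread of a gene to be the same in HSC and MPP libraries, and the effect of the kit to cancel within each response. The script was tested on simulated data. Alternatives were DESeq2 1.42.0, limma 3.58.1 (voom), DESeq2 size factors, no filter, removal of immunoglobulin and mitochondrial genes, a replicate block, a technical group block and leaving out each library. The related gene lists without MTP10-HDL 1 were added after the data were seen. Log2 CPM used a prior count of 2. The 9 genes and all lists were chosen with earlier results of these data known. All 9 genes were named, and from each list the genes past the threshold (at most 4) or, where none passed, the 2 of smallest p. Gene positions and promoter windows are from RefSeq, GRCm38.p6. Tasl, 1 of 15 genes in its list, was matched to no row. For likeness across HSC libraries the 3 genes of highest rho were taken for each gene, of which 1 is not reported here.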

Additional observations from a re-analysis of the deposited data

Results flagged for a closer look

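Among 18 sets of HSC values, 1 for each of the 9 genes in each treatment group, 4 had a library far from the others by Dixon's test at the 95% level, which chance does in about 1 in 20 sets. Nod1 was at 77.2 CPM in MTP10-HDL 1, with the next treated library at 36.3 CPM. Slc15a3 was at 33.6 CPM in the same library, with the next at 12.8 CPM. MTP10-HDL 1 also held the most monocyte and macrophage markers, 9006 CPM, whose part in both values was not tested. Card9 was at 21.0 CPM in PBS 5, with the next control at 7.71 CPM, and this library held 4116 CPM of neutrophil markers, the most of the controls, while that next control, PBS 7, held 158.7 CPM. Their part was not tested. Nagk was at 32.2 CPM in PBS 4, with the next control at 12.5 CPM. PBS 4 had 24233 detected genes, the fewest of the 13. PBS 1, the control with the next fewest at 27528, had 8.12 CPM of Nagk. The part of gene detection was not tested.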

How the results depend on the processing

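Of 351 fold changes of single genes under an alternative, 332 kept their direction and their side of the threshold, 1 passed it and 18 changed sign. The 1 was Card9 in MPPs with no filter on low counts, so that the count of the 9 genes past the threshold was 1 there. Genes called in HSCs numbered 0 in the reported fit, 44 with no filter, 108 by DESeq2, 0 by limma voom, and 0 to 1 when single libraries were left out (1 without MTP10-HDL 4). In MPPs they numbered 0, and 345 with no filter, 163 by DESeq2, 0 by limma voom, and 0 to 17 when single libraries were left out (17 without PBS 3). Why the counts differ was not tested.

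Pairing by replicate number was not seen in HSCs: same-numbered libraries had correlations of their deviations from -0.185 to 0.192, with 1 of 6 closest to its own number. The 2 MPP pairs had -0.168 and -0.0294. These cannot test pairing, since the deviations of 2 controls from their mean mirror each other. With the replicate block 0 HSC genes and 43 MPP genes were called, none of them among the 9, and Card9 in MPPs was 1.31 (adjusted p = 0.785 by edgeR).

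The sign changed in these cases. In HSCs Nod2 was -0.0092 by limma voom, and Slc15a3 was 0.05, 0.02, 0.10 and 0.0090 without MTP10-HDL 3, 4, 5 or 6 and 0.04 and 0.16 without PBS 1 or 5 (range over left-out libraries -0.74 to 0.16). In MPPs Slc15a4 was 0.0074 with no filter, and over left-out libraries it ran from -0.11 to 0.13, Nagk from -0.35 to 0.20, Ripk2 from -0.15 to 0.37 and Xiap from -0.29 to 0.20. The MPP minus HSC difference of Xiap was -0.0475 by limma voom and ran from -0.13 to 0.34. Nod2 in HSCs rests on 5 to 37 reads per library, which limits what a difference could show, and with 3 and 2 MPP libraries a lone library in a group is assumed to vary like the others.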
